A study of Mus musculus with 12 samples.

Results

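REST, also called NRSF, is a zinc finger repressor, and the genes described here are Rest itself and 9 genes whose proteins repress with it: the CoREST genes Rcor1, Rcor2 and Rcor3, the histone deacetylase genes Hdac1 and Hdac2, the scaffold gene Sin3a, the histone demethylase gene Kdm1a, the histone methyltransferase gene Ehmt2 and the phosphatase gene Ctdsp1. The 10 genes were taken by name, and their probe sets are those that the platform annotation maps to 1 of them alone. That gave 26 probe sets of the 45101 on the array, for 10 of the 18193 genes that had a probe set of their own. A filter on dim signals kept 20 of the 26, with at least 1 for every gene, and Rest kept 2 of its 4.

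The study measured RNA of C57BL/6 mouse cells on 12 Affymetrix arrays in 4 groups of 3. The groups were ZNF335 knockdown at 5 days, control knockdown at 5 days, ZNF335 knockdown at 1 day and control knockdown at 1 day. ZNF335, Zfp335 in the mouse, is a zinc finger protein, and the series title names REST and the trithorax complex as routes of its action. Every sample, whichever its time point, carries the same age labels, with an origin at embryonic day 14.5, a developmental stage of 15.5 and a harvest at day 0 after birth. The control samples are labelled neurons and the knockdown samples cells. The design text speaks of short hairpin RNA and sorted cells, and the titles of small interfering RNA. No source used here gives the hairpin, the way it was delivered, the brain region or the number of animals, so a p-value covers only the spread among these arrays and that spread may be technical. Groups follow the titles and source names. In 6 samples, those of 5 days, the description field names the other group.

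In textbook accounts REST binds a DNA element called RE1 near genes of neurons and keeps them silent in cells that are not neurons and in neural progenitors. One end of the protein recruits SIN3 scaffolds and the other recruits CoREST, and both bring the deacetylases HDAC1 and HDAC2, which remove acetyl groups from histones. CoREST also carries the demethylase KDM1A, and REST complexes hold the methyltransferase EHMT2, also called G9a. CTDSP1 is a phosphatase that REST complexes bring to the polymerase at neuronal genes. During neuronal differentiation REST falls and the RE1 genes are released.

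The promoters of the 3 CoREST genes are shown because Rcor2 had the lowest value of the members in the 5-day knockdown comparison while its relatives Rcor1 and Rcor3 had overlapping groups there. They run from 250 bases before to 50 bases after the RefSeq start in GRCm38.p6, read along the gene's strand, and capitals mark GGACAGC, the right part of the RE1 element, where it was found on either strand. The Rcor2 promoter lies at chr19:7267144-7267443 on the plus strand, the Rcor1 promoter at chr12:111039117-111039416 on the plus strand and the Rcor3 promoter at chr1:192137991-192138290 on the minus strand.
Rcor2: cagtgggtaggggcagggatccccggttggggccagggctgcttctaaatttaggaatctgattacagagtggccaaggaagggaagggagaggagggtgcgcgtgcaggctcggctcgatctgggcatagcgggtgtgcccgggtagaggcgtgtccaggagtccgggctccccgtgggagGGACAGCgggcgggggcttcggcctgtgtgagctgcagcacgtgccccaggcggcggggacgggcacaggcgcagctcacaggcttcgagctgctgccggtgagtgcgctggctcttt
Rcor1: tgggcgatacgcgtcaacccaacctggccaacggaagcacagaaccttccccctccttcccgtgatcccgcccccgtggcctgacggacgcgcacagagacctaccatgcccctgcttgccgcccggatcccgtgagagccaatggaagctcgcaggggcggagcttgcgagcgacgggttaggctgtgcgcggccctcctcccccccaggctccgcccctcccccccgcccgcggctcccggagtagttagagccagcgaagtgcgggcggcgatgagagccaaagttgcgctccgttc
Rcor3: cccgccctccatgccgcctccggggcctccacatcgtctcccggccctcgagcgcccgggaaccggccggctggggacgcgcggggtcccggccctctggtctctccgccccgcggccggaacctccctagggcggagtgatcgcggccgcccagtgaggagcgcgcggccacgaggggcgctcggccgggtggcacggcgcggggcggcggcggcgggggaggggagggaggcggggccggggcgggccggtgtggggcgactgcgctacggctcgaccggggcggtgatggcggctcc
The motif stood in the Rcor2 promoter with its first base 68 bases before the start, and the Rcor1 and Rcor3 promoters held none. Of the 10 RefSeq promoters found for 8 members, 2 held it, those of Rcor2 and Ctdsp1, beside 6.56% of 32851 promoters of the same length. The left part of the element, TTCAGCACC, was in 0 of the 10 and in 0.371% of all, both strands searched. The promoters were rich in G and C, at 67.3% for Rcor2, 69.3% for Rcor1 and 81.7% for Rcor3. A match to these letters is a description of the sequence.

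Zfp335, the gene aimed at, was read by 1 probe set. Its deposited intensity was 103, 34.3 and 151 in 5-day knockdowns and 109, 150 and 179 in 5-day controls, and 136, 53.6 and 41.0 in 1-day knockdowns and 139, 46.1 and 127 in 1-day controls. The groups overlapped at both times, so the probe set does not separate the labels. limma gave a log2 fold change of -0.64 (SE 0.74, adjusted p = 1.00) at 5 days and -0.64 (SE 0.74, adjusted p = 0.832) at 1 day. No source used here says where the hairpin binds relative to the probes.

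The arrays differed in ways that touch the members. The deposited mean intensity per array was 549 to 652 at 5 days and 265 to 322 at 1 day, so values below are either deposited intensities, compared within a time point, or log2(intensity + 16) after quantile normalization. All 1-day arrays shared a chip lot that no 5-day array had, and no fluidics station served both times, so time, lot and station cannot be told apart. The 1-day arrays fell into a set with strong hybridisation controls (knockdowns 2 and 3 and control 2, 12.67 to 12.82 on the log2 scale) and a set with weak ones (knockdown 1 and controls 1 and 3, 10.81 to 11.81). Arrays of the same set correlated at 0.945 to 0.986, and arrays of different sets at 0.774 to 0.871. At 5 days the 3 knockdowns and control 1 shared a scanner and a fluidics station, so these cannot be told apart there. Controls 2 and 3 had another of each, and their scanner also read all 1-day arrays. Knockdown 2 of 5 days had an Actb 3' to 5' ratio of 8.76, a sign of broken RNA, against 1.51 to 2.91 on the other arrays.

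Markers of the labelled cells were bright on average, and those of other cells ranged from bright to dim. No marker value was listed at 0, but the lowest, Aif1 of the microglia list, was 2.03 in deposited intensity, so a value above 0 does not show that a gene was expressed. Mean log2 signal over 10 radial glia markers was 10.29 to 11.01 in 5-day knockdowns, 10.56 to 10.77 in 5-day controls, 10.49 to 11.04 in 1-day knockdowns and 10.49 to 10.996 in 1-day controls, so progenitor markers were well detected in samples labelled neurons too. Mean log2 signal over 11 postmitotic neuron markers ran from 9.80 to 10.69 over the 12 arrays. The mean over 10 microglia markers was 7.57 to 10.96 in 5-day knockdowns, 7.87 to 10.15 in 5-day controls, 5.37 to 7.46 in 1-day knockdowns and 5.61 to 8.17 in 1-day controls, the lowest of them at the level of dim probe sets.

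The question of the knockdown comparisons is whether REST or its partners change in amount when ZNF335 is reduced. No member probe set passed the test at either time, and neither did any other probe set. At 5 days limma called 0 of 27022 probe sets (a share of 0%; 34 had an unadjusted p under 0.05), and at 1 day 0 of 27022 (0%; 120). The difference of the knockdown effects between the times was called for 0 of 27022 as well (0%; 55). In simulated data the 5-day comparison called 4% of changes of 1 log2 unit and 38% of changes of 2. A count of 0 therefore does not show that nothing changed. Of the 20 member probe sets, 1 had groups that did not overlap at 5 days, beside 3.00% of all kept probe sets, and 0 at 1 day, beside 1.66%. The 1 was Rcor2, below control, a direction seen in 1.69% of all. Over the members' brightest probe sets the median log2 fold change was 0.03 at 5 days, where the median of all 12263 genes was 0.01, and -0.06 at 1 day, where it was -0.17.

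**Figure D1:**
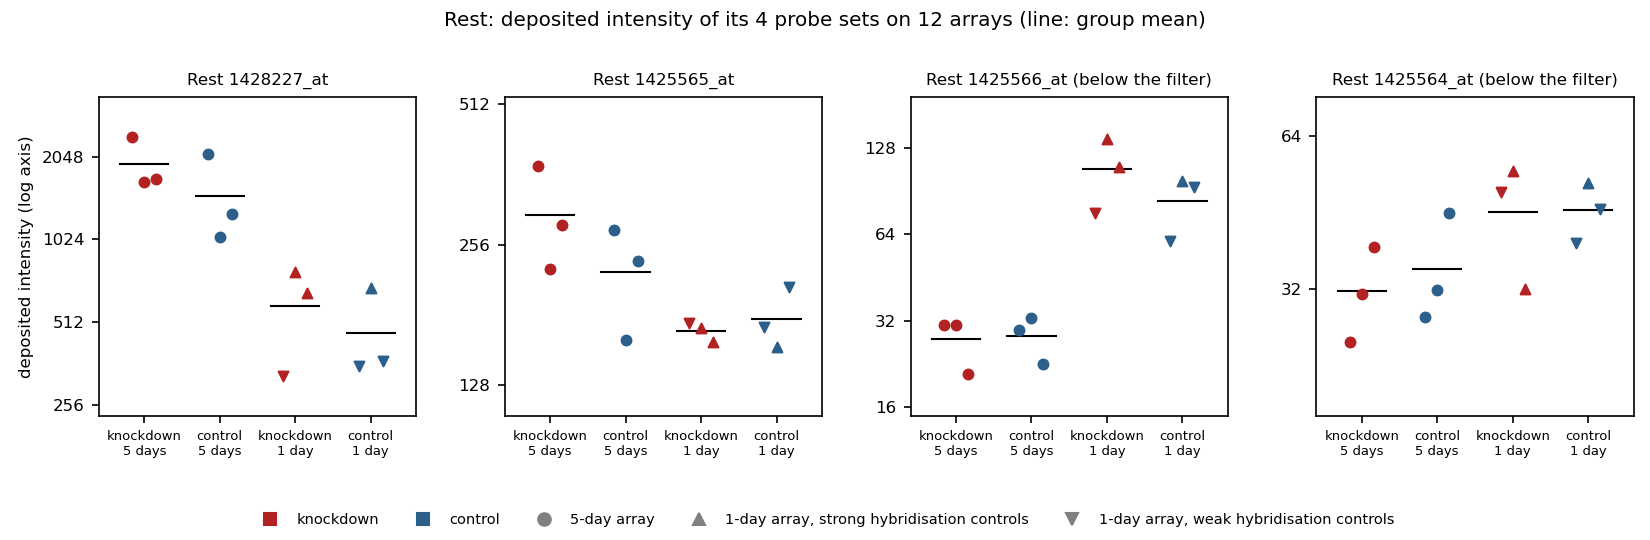
Deposited intensity of the 4 Rest probe sets (vertical log axis, intensity units as deposited) on the 12 arrays by group, with a line at each group mean, and triangles for the 1-day arrays by the level of their hybridisation controls. In the first panel the knockdown and control arrays overlap at both times and the 5-day arrays span 1048 to 2405 and the 1-day arrays 328 to 782; the third panel runs the other way, with 1-day arrays higher.

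Rest, the DNA-binding member, was read best by 1428227_at. Its deposited intensity was 2405, 1651 and 1702 in 5-day knockdowns and 2099, 1048 and 1271 in 5-day controls, and 782, 656 and 328 in 1-day knockdowns 2, 3 and 1 and 680, 369 and 356 in 1-day controls 2, 3 and 1. All knockdowns at 5 days lay above controls 2 and 3 and on both sides of control 1, and at 1 day each group had its high values on the arrays with strong hybridisation controls. limma put the 5-day log2 fold change at 0.38 (SE 0.33, adjusted p = 1.00), with a 95% interval of -0.35 to 1.12 and an exact permutation p = 0.3. At 1 day it was 0.24 (SE 0.33, adjusted p = 0.832), with an interval of -0.50 to 0.97 and an exact permutation p = 0.7. The 5-day value was -0.06 with the scanner as a block, which sets the knockdowns against control 1 alone, the only control on their scanner. The 1-day value was -0.03 with the hybridisation set as a block. The direction of the Rest value thus depended on these blocks. With 3 arrays against 3 the exact test cannot go below p = 0.1.

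On the 5-day arrays, Rest was highest on the arrays with the most microglia marker signal. Normalized log2 Rest was 10.58, 10.26 and 10.15 in knockdowns 1 to 3 and 10.39, 9.62 and 9.83 in controls 1 to 3. The mean over the 10 microglia markers was 10.96, 9.12 and 7.57 in the same knockdowns and 10.15, 7.87 and 8.59 in the same controls, and over 12 endothelial cell and pericyte markers 10.43, 8.51 and 7.55 against 9.90, 7.56 and 8.42. Knockdown 1 and control 1 led all 3 measures. At 1 day the order was the other way, since knockdown 1 and controls 1 and 3 held the most microglia marker signal (7.46, 8.17 and 8.02, against 5.37 to 5.61 on the other arrays) and the lowest Rest values. REST is known from cells that are not neurons. The design text speaks of sorted cells without naming the gate, and the part of other cells in the Rest signal was not tested. In these bulk samples fewer cells of a type and less RNA per cell cannot be told apart.

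The other Rest probe sets did not repeat a knockdown difference. Probe set 1425565_at had 378, 227 and 282 in 5-day knockdowns and 275, 160 and 236 in 5-day controls, and 174, 170 and 159 in 1-day knockdowns and 171, 154 and 208 in 1-day controls. Its log2 fold change was 0.22 (SE 0.32) at 5 days and -0.20 (SE 0.32) at 1 day, with overlapping groups. Probe set 1425566_at, below the filter, had 31.0, 30.8 and 20.8 in 5-day knockdowns and 29.7, 32.6 and 22.5 in 5-day controls, and 75.9, 137.9 and 110.2 in 1-day knockdowns and 60.5, 98.1 and 93.6 in 1-day controls. Every 5-day value of it lay below every 1-day value, the reverse of 1428227_at. The 5-day arrays had the higher mean intensity, while their median intensity of 94.8 to 147 overlapped that of the 1-day arrays, 85.1 to 124. Probe set 1425564_at, also below the filter, stayed between 25.2 and 54.5 on all arrays. No source used here says which Rest transcript each probe set reads.

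Among the CoREST genes, whose proteins bridge REST to deacetylases and KDM1A, Rcor2 was the member whose 5-day groups did not overlap, and it did not pass the test. Its probe set 1417302_at had a deposited intensity of 394, 326 and 451 in 5-day knockdowns and 532, 751 and 826 in 5-day controls. All knockdowns lay below all controls, and control 1, which shared the knockdowns' scanner, was the nearest to them. In limma the change was -0.74 on the log2 scale (SE 0.34, 95% interval -1.50 to 0.01), with an unadjusted p = 0.054 and an adjusted p = 1.00, and the exact permutation p of 0.1 was the smallest possible. With the scanner as a block, which leaves control 1 as the only control, the change was -0.24 (SE 0.46). At 1 day Rcor2 had 613, 409 and 416 in knockdowns and 758, 519 and 484 in controls, with overlap, and a log2 fold change of -0.45 (SE 0.34). The 1-day value was -0.41 among the arrays with strong hybridisation controls and 0.02 among those with weak ones. Markers of intermediate progenitors and newborn neurons were also lower in knockdowns at 5 days. Their mean log2 signal over 9 genes was 9.45 to 9.78 in 5-day knockdowns and 9.91 to 10.06 in 5-day controls, with 7 genes below 0 and 2 above. The part of these cells in the Rcor2 value was not tested.

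Rcor1, the CoREST first found with REST, has 3 kept probe sets, and their 5-day values differed in sign. At 5 days their log2 fold changes were 0.16 (SE 0.30) for 1434336_s_at, -0.07 (SE 0.39) for 1454932_at and -0.48 (SE 0.54) for 1437545_at. The last rested on knockdown 2, the array with the high Actb ratio, which had a deposited intensity of 106 where the other knockdowns had 392 and 288 and the controls 370, 331 and 266. At 1 day all 3 lay below 0, at -0.47 (SE 0.30), -0.38 (SE 0.39) and -0.64 (SE 0.54), with overlap. In that comparison 2 of the 3 knockdowns and 1 of the 3 controls were arrays with strong hybridisation controls, where each Rcor1 probe set read lower. With the hybridisation set as a block the value of the brightest was -0.19.

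Rcor3 had the narrowest interval of the members. Its brightest probe set 1428342_at had 2812, 2662 and 2609 in 5-day knockdowns and 2653, 2592 and 2798 in 5-day controls, and 893, 1169 and 834 in 1-day knockdowns and 976, 1050 and 698 in 1-day controls. The groups lay within each other at both times. Its log2 fold change was 0.04 (SE 0.19, 95% interval -0.39 to 0.47) at 5 days and -0.002 (SE 0.19, interval -0.43 to 0.43) at 1 day, so changes within those intervals were not excluded. The kept probe sets 1428343_at and 1432232_at had 0.16 and 0.09 at 5 days and 0.44 and 0.36 at 1 day, none with separate groups.

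**Figure D2:**
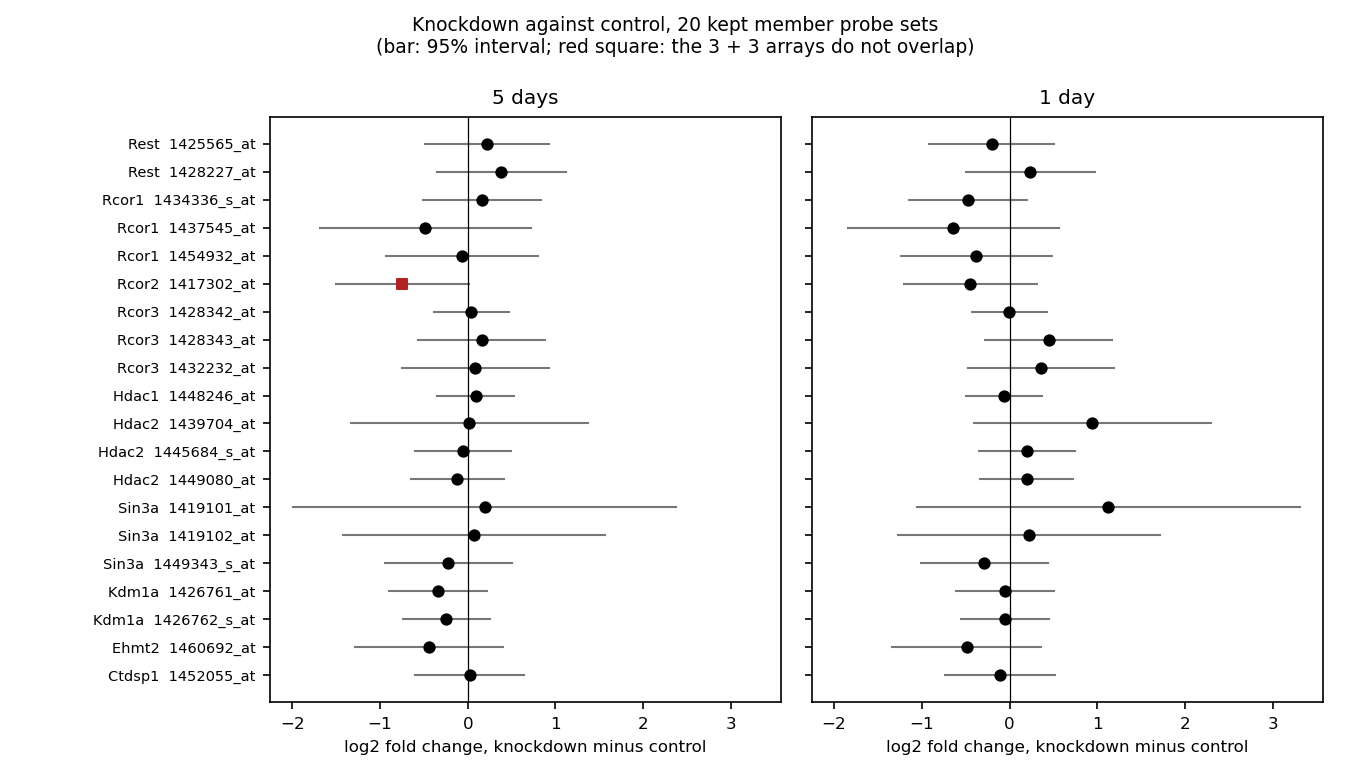
Log2 fold change of knockdown minus control (horizontal axis, log2 units) for the 20 kept member probe sets at 5 days (left) and 1 day (right), with 95% intervals from limma. Every interval includes 0; Rcor2 at 5 days, at -0.74, is the square whose groups do not overlap, and the interval of Sin3a 1419101_at is the widest.

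No deacetylase probe set had separate groups at either time. Hdac1 had 1092, 1390 and 1171 in 5-day knockdowns and 1152, 1086 and 1134 in 5-day controls, and 732, 877 and 891 in 1-day knockdowns and 811, 831 and 804 in 1-day controls. Knockdown 2 was the highest of the 5-day arrays, and the groups overlapped at both times. Its log2 fold change was 0.09 (SE 0.20, interval -0.35 to 0.53) at 5 days and -0.06 (SE 0.20, interval -0.50 to 0.37) at 1 day. For Hdac2 the bright probe sets 1445684_s_at and 1449080_at had -0.06 (SE 0.25) and -0.12 (SE 0.24) at 5 days and 0.20 (SE 0.25) and 0.19 (SE 0.24) at 1 day. The dimmer 1439704_at had 0.02 (SE 0.61) at 5 days and 0.95 (SE 0.61) at 1 day.

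Sin3a, the scaffold that joins REST to the deacetylases, had the largest 1-day value and the largest error. Its brightest probe set 1419101_at had 816, 669 and 69.5 in 1-day knockdowns 2, 3 and 1 and 484, 148 and 67.2 in 1-day controls 2, 3 and 1. The 3 values from 484 upwards were the 3 arrays with strong hybridisation controls, and the 3 low ones the arrays with weak controls. This gave 1.12 on the log2 scale (SE 0.98, 95% interval -1.06 to 3.31), with 0.70 among the arrays with strong controls, -0.50 among those with weak ones and 0.10 with the set as a block. At 5 days the probe set had 345, 779 and 525 in knockdowns and 713, 439 and 247 in controls, with 0.19 (SE 0.98). The probe sets 1419102_at and 1449343_s_at had 0.07 and -0.22 at 5 days and 0.23 and -0.29 at 1 day.

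By their kept probe sets, the enzymes that act on histone methyl groups were below control on average at 5 days. The array with the high Actb ratio held the lowest 5-day value of each. KDM1A takes methyl groups off histone H3 and EHMT2 adds them. Kdm1a probe set 1426762_s_at had 4452, 2972 and 5042 in 5-day knockdowns and 4725, 5002 and 5041 in 5-day controls. Knockdown 2 stood apart on the low side, and the others were within or near the controls. Its log2 fold change was -0.24 (SE 0.23), and -0.08 without knockdown 2. Ehmt2 probe set 1460692_at had 1091, 733 and 1531 in 5-day knockdowns and 1270, 1516 and 1646 in 5-day controls, with knockdown 2 again lowest and knockdown 3 inside the control range. Its log2 fold change was -0.44 (SE 0.38), and -0.23 without knockdown 2. At 1 day the values were -0.05 (SE 0.23) for Kdm1a and -0.49 (SE 0.38) for Ehmt2, which had -0.15 with the hybridisation set as a block. The dim Ehmt2 1426888_at, below the filter, went the other way at 5 days, at 0.26 (SE 0.39). It had 142 in knockdown 2 and 39.4 to 50.2 on the other 5-day arrays.

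Ctdsp1, the phosphatase member, had 1737, 792 and 1556 in 5-day knockdowns and 1449, 1054 and 1261 in 5-day controls. Knockdown 2 was the lowest and the other knockdowns the highest of the 6 arrays. Its log2 fold change was 0.02 (SE 0.28, interval -0.60 to 0.65), and 0.31 without knockdown 2. At 1 day it was -0.11 (SE 0.28), with 620, 804 and 960 in knockdowns and 644, 851 and 925 in controls, which overlap.

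Other proteins around REST gave no call either. Of 19 measured genes for further REST or CoREST partners, 0 were called at 5 days and 0 at 1 day, with medians of -0.04 and -0.10 beside 0.01 and -0.17 for all genes. The smallest unadjusted p values there belonged to Gse1 (-0.90, SE 0.61) at 5 days and Med12 (-0.57, SE 0.31) at 1 day. Of 10 genes that set the amount, place or splicing of REST, 0 were called at either time. Of 18 neuronal genes with RE1 sites, which REST represses, 0 were called, with a median of -0.10 at 5 days and -0.28 at 1 day. The smallest unadjusted p among them at 5 days belonged to Mapk8ip1, a kinase scaffold gene, at -1.29 (SE 0.80).

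**Figure D3:**
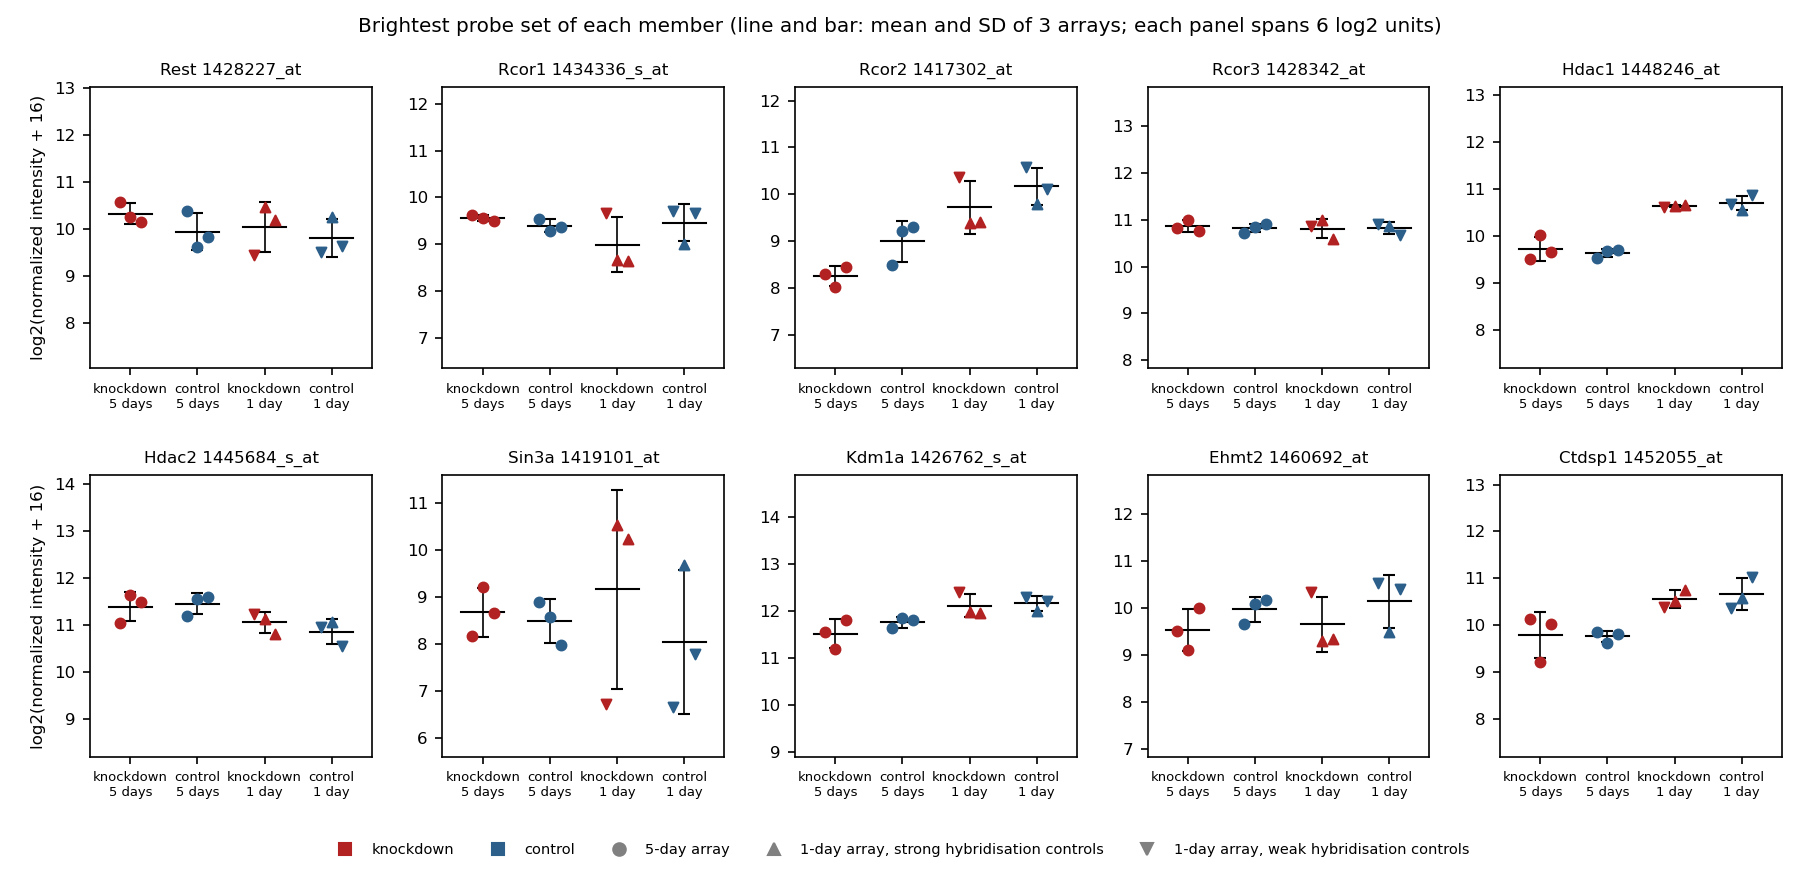
Log2 of normalized intensity + 16 of the brightest probe set of each member (vertical axis, log2 units; each panel spans the same range) in the 4 groups, with the mean and SD of 3 arrays. Hdac1 is lower in the 5-day arrays (9.51 to 10.01) than in the 1-day arrays (10.56 to 10.86) without overlap, and Rcor2 is lowest in the 5-day knockdowns (8.02 to 8.46); Sin3a spreads over 6.65 to 10.54 at 1 day.

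The comparison of 5 days with 1 day shows how the members stood later after knockdown, with chip lot and fluidics station in the same contrast. In knockdowns the scanner changed with the time as well, so there time, lot, station and scanner cannot be told apart, and a scanner block rests on the 5-day controls. After quantile normalization Hdac1 was lower at 5 days in both knockdowns and controls, and Rcor2 was lower in knockdowns. limma called 2 of the 20 member probe sets in knockdowns, both lower, where 5.98% of all were called (4.04% higher and 1.94% lower), and 1 of 20 in controls, lower, where 3.28% were called (2.02% higher and 1.25% lower). Groups did not overlap for 6 of 20 in knockdowns (1 higher and 5 lower), beside 23.2% of all (13.7% and 9.45%). In controls they did not overlap for 7 of 20 (2 higher and 5 lower), beside 29.8% of all (17.0% and 12.8%). The knockdown and control changes rest on different arrays.

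Hdac1 had normalized log2 values of 9.51, 10.01 and 9.64 in 5-day knockdowns and 10.60, 10.64 and 10.66 in 1-day knockdowns, and 9.53, 9.67 and 9.69 in 5-day controls and 10.67, 10.56 and 10.86 in 1-day controls. Every 5-day array lay below every 1-day array. The change of 5 days over 1 day was -0.91 on the log2 scale (SE 0.20, limma adjusted p = 0.028) in knockdowns and -1.07 (SE 0.20, adjusted p = 0.018) in controls. With 1 array left out it stayed between -1.06 and -0.81 in knockdowns and between -1.14 and -0.99 in controls. The call was lost in knockdowns without 1-day array 2 or 3 or 5-day array 1 or 3 (adjusted p 0.080 to 0.115), and in controls without 1-day array 1 or 3 or any 5-day array (adjusted p 0.051 to 0.097). A scanner block gave -0.77 (limma adjusted p = 0.723) in knockdowns and -1.02 (adjusted p = 0.097) in controls.

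Rcor2 had normalized log2 values of 8.30, 8.02 and 8.46 in 5-day knockdowns and 10.37, 9.40 and 9.40 in 1-day knockdowns, and 8.50, 9.21 and 9.30 in 5-day controls and 10.58, 9.80 and 10.12 in 1-day controls. The times did not overlap in either group, and the 5-day knockdowns were the lowest 3 of the 12 arrays. Rcor2 changed by -1.46 on the log2 scale (SE 0.34, limma adjusted p = 0.036) in knockdowns, and its value in controls was -1.16 (SE 0.34, adjusted p = 0.103). The knockdown call was lost without 1-day array 2 or 3 or any 5-day array (adjusted p 0.079 to 0.099, log2 fold change -1.62 to -1.34), and a scanner block gave -0.71 (adjusted p = 0.723). The difference between these changes, -0.30 (SE 0.48), did not pass the test.

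The size and sign of these changes hung on how the arrays were brought to 1 level. Without normalization the median of the tested probe sets was 0.87 higher at 5 days in both groups, and with scaling to 1 median it was 0.73 in knockdowns and 0.72 in controls. Hdac1 then had 0.54 and 0.39 in knockdowns and 0.46 and 0.30 in controls, which reverses the sign. Without normalization limma called Hdac1 higher in both groups (adjusted p = 0.020 in knockdowns and 0.043 in controls), the opposite of the call after quantile normalization, and with scaling to 1 median it was not called. Relative to that median it was still negative, at -0.33 and -0.34 in knockdowns and -0.42 and -0.42 in controls. Rcor2 relative to the median was -1.14 and -1.14 in knockdowns and -0.61 and -0.62 in controls, against -1.52 and -1.17 after quantile normalization. Kdm1a and Ctdsp1 were also negative relative to the median under each of these scalings, Kdm1a at -0.66 to -0.46 in knockdowns and -0.41 to -0.18 in controls, and Ctdsp1 at -0.82 to -0.16 in knockdowns and -0.90 to -0.24 in controls. With either scaling limma called Rest, Rcor1, Rcor3 and Hdac2 higher in both groups, and did not call Rcor2. Under both, many more of all probe sets were called than after quantile normalization, as counted below. The calls of members under these scalings are thus not particular to the members. Without normalization it also called Ehmt2 higher in both groups (adjusted p = 0.0064 in knockdowns and 0.0037 in controls) and Kdm1a in controls (adjusted p = 0.026).

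**Figure D4:**
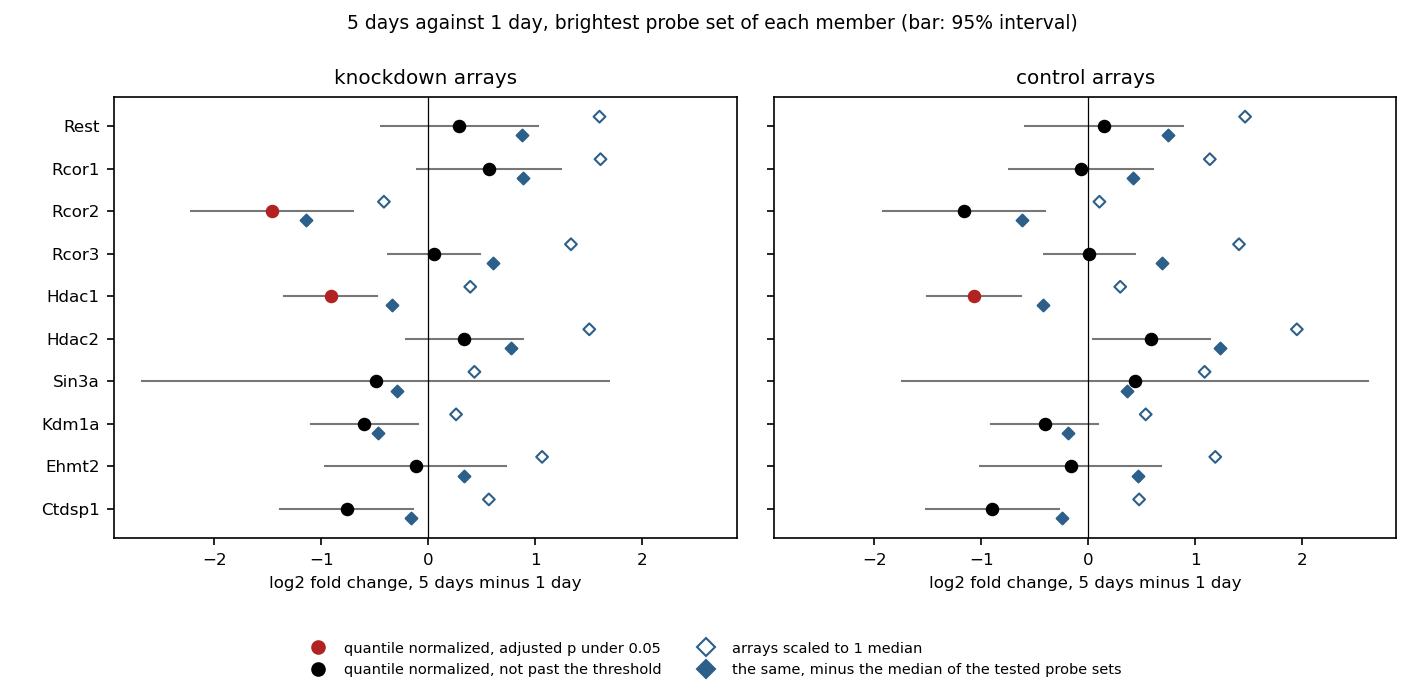
Log2 fold change of 5 days minus 1 day (horizontal axis, log2 units) for the brightest probe set of each member in knockdown arrays (left) and control arrays (right), with 95% intervals; red points passed the threshold after quantile normalization. Open diamonds are values with arrays scaled to 1 median, and filled diamonds the same minus the median of the tested probe sets; Hdac1 changes sign between the red points (-0.91 and -1.07) and the open diamonds (0.39 and 0.30).

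The Rest probe sets kept by the filter were not called over time after quantile normalization. For 1425565_at the change was 0.11 (SE 0.32, limma adjusted p = 0.840) in knockdowns and -0.31 (SE 0.32, adjusted p = 0.716) in controls. Probe set 1428227_at had 0.29 (SE 0.33, limma adjusted p = 0.586) in knockdowns and 0.15 (SE 0.33, adjusted p = 0.883) in controls. With arrays scaled to 1 median, where many more of all probe sets were called, it was called higher, at 1.60 (limma adjusted p = 0.003) and 1.47 (adjusted p = 0.005). These values are 0.87 and 0.74 above the median of the tested probe sets. Set against the 1-day arrays with strong hybridisation controls alone 1428227_at had -0.01 and -0.32, and against those with weak ones 0.88 and 0.38. The dim 1425566_at passed the threshold in a fit without the filter, at -1.33 (SE 0.24, limma adjusted p = 0.010) in knockdowns and -0.996 (SE 0.24, adjusted p = 0.045) in controls, with separate groups. The probe sets of Rest thus differed in sign over time, and after quantile normalization only the dim 1425566_at passed the threshold.

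Other members showed separate groups without a call. Kdm1a 1426762_s_at was -0.60 (SE 0.23, limma adjusted p = 0.134) in knockdowns and -0.41 (SE 0.23, adjusted p = 0.410) in controls, and Ctdsp1 -0.76 (SE 0.28, adjusted p = 0.127) and -0.90 (SE 0.28, adjusted p = 0.123). The second Kdm1a probe set 1426761_at had -0.86 and -0.57. On the higher side, Sin3a 1449343_s_at had 1.08 (SE 0.33, adjusted p = 0.079) in knockdowns and 1.01 (SE 0.33, adjusted p = 0.136) in controls. The brighter Sin3a 1419101_at had -0.49 (SE 0.98) and 0.44 (SE 0.98), so its probe sets disagreed. Hdac2 1445684_s_at had 0.33 (SE 0.25) in knockdowns, with overlap, and 0.59 (SE 0.25) in controls, without. Hdac2 1449080_at had 0.15 and 0.46, and the dimmer Hdac2 1439704_at lay the other way, at -1.40 and -0.48 (SE 0.61 each), both with overlap. The brightest probe sets of Ehmt2 (-0.12 and -0.16), Rcor1 (0.57 and -0.07) and Rcor3 (0.05 and 0.01) had overlapping groups in both. The other kept probe sets differed in sign. Rcor3 1428343_at had -0.56 and -0.28 and 1432232_at 0.36 and 0.62, and Rcor1 1437545_at had -0.05 and -0.21 and 1454932_at 0.54 and 0.23. Without 1-day knockdown 1, a fit in which limma called 7729 probe sets, Rcor1 was called higher in knockdowns at 0.90 (adjusted p = 0.028).

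Genes that act on REST included some that rose. Of the 10 measured regulators, 2 were called higher at 5 days in knockdowns and 2 in controls, the same genes Srrm4 and Usp15, and 0 lower, beside 5.17% and 2.34% of all genes called higher. Srrm4, the splicing factor that turns Rest transcripts to a truncated neuronal form, had normalized log2 values of 11.31, 11.46 and 11.41 in 5-day knockdowns and 10.11, 9.58 and 9.67 in 1-day knockdowns. In controls it had 11.57, 11.58 and 11.39 at 5 days and 10.14, 9.51 and 8.96 at 1 day. The 5-day arrays all lay above the 1-day arrays, and Srrm4 rose by 1.61 on the log2 scale (SE 0.29, limma adjusted p = 0.014) in knockdowns and 1.98 (SE 0.29, adjusted p = 0.006) in controls. Usp15, a deubiquitinase that protects newly made REST in human cells, had 1.22 (SE 0.27, adjusted p = 0.029) and 1.14 (SE 0.27, adjusted p = 0.047). Under scaling to 1 median, Srrm4 stood 2.05 and 2.48 above the median of the tested probe sets and Usp15 1.51 and 1.49. In knockdowns the calls were lost against the 1-day array with weak hybridisation controls alone (limma adjusted p 0.141 and 0.164) and with a scanner block (0.723 for both). In controls the Usp15 call was lost against the array with strong controls alone (0.078), with a scanner block (0.136) and with a pseudocount of 4 (0.051).

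A few RE1 genes were called higher at 5 days. Of 18 measured, 3 were called higher in knockdowns and 4 in controls, and 0 lower, beside 5.17% and 2.34% of all genes called higher. The values of 15 in knockdowns and 16 in controls were above 0, beside 60.5% and 54.0% of all genes, and their medians were 0.71 and 0.69, beside 0.21 and 0.06 for all genes. The mean log2 signal over the 18 was 9.87, 8.87 and 8.98 in 1-day knockdowns 1 to 3 and 9.89 to 10.13 in 5-day knockdowns. In controls it was 9.98, 9.28 and 9.29 at 1 day and 10.07 to 10.26 at 5 days. Array 1 of each 1-day group thus lay near the 5-day arrays, and the gap was mostly to arrays 2 and 3. Nrxn3, a presynaptic adhesion gene, had 1.52 (SE 0.34) in knockdowns and 1.66 (SE 0.34) in controls, Syt4, a vesicle protein gene, 1.18 and 1.24 (SE 0.25 each), and Stmn3, a microtubule regulator gene, 0.86 and 0.89 (SE 0.18 each). Gria2, a glutamate receptor gene, had 0.87 (SE 0.30) in knockdowns, not called, and 1.32 (SE 0.30) in controls, called, and the difference of -0.44 (SE 0.42) did not pass the test. Against the 1-day knockdown with weak hybridisation controls alone the 3 knockdown calls were lost (limma adjusted p 0.092 to 0.197), and with a scanner block all of these calls were (0.723 in knockdowns and 0.123 to 0.172 in controls). Against the 1-day control with strong hybridisation controls alone Gria2 (0.080) and Nrxn3 (0.063) lost theirs. Of the 19 further REST or CoREST partners 0 were called in either group, with medians of -0.10 and -0.08. Zmym3, a CoREST complex member, had 0.70 in knockdowns and 0.79 in controls (SE 0.25 each), and Ctbp1, a corepressor, had -0.69 and -0.62 (SE 0.23 each).

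Some cell type and division markers were called in the same contrast. Of 11 postmitotic neuron markers 6 in knockdowns and 4 in controls were above 0, with medians of 0.03 and -0.21. None was called higher, and 1 was called lower in each group, Fezf2 at -2.15 and -2.35. The neuron markers as a list thus showed no common rise beside the RE1 genes. Of 9 mitosis markers 4 were called lower in knockdowns and 2 in controls, beside 1.97% and 1.44% of all genes. Their mean log2 signal was 9.19 to 9.52 in 5-day knockdowns against 10.10 to 10.51 in 1-day knockdowns, and 9.26 to 9.74 in 5-day controls against 10.11 to 10.89 in 1-day controls. Of 9 markers of intermediate progenitors and newborn neurons 3 were called lower in each group, among them Eomes at -2.37 (SE 0.26) and -1.69 (SE 0.26). With a scanner block Eomes lost its knockdown call (limma adjusted p = 0.329), and the mitosis genes Mki67 and Bub1 lost theirs in both groups (0.723 in knockdowns, 0.119 and 0.059 in controls). With arrays scaled to 1 median Eomes was -1.33 and -0.57, the second not called (limma adjusted p = 0.274), while Mki67 turned to 0.19 and 0.30, which is -0.54 and -0.43 relative to the median of the tested probe sets. All 10 microglia markers were above 0 in both groups, with medians of 3.09 and 1.49, and 0 were called. Of 12 endothelial cell and pericyte markers 10 in knockdowns and 12 in controls were above 0. In each group 1 of them was called higher, Slco1c1 at 4.09 and 3.42. The part of these cells in the Hdac1 and Rcor2 changes was not tested.

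Within the 1-day arrays the members differed between the hybridisation sets as often as other probe sets did. Of the 20 kept member probe sets 15 (75.0%) had strong and weak sets that did not overlap after normalization, 6 higher and 9 lower in the strong set, beside 75.2% of all kept probe sets. Probe sets of 1 gene went both ways. Rest 1428227_at had deposited intensities of 656 to 782 in the strong set and 328 to 369 in the weak set, while Rest 1425565_at had 154 to 170 and 171 to 208. Hdac2 1439704_at had 528 to 701 against 155 to 178, and the brighter Hdac2 1449080_at overlapped. Sin3a 1419101_at differed most, by 3.10 on the normalized log2 scale, while Sin3a 1449343_s_at differed by -0.85. All 3 Rcor1 probe sets and Ehmt2 1460692_at were lower in the strong set, with normalized differences of -1.41 to -0.90 for Rcor1 and -1.05 for Ehmt2. After normalization Hdac1, Rcor3 1428342_at and Ctdsp1 overlapped. The deposited Hdac1 values did not, at 831 to 891 in the strong set and 732 to 811 in the weak set.

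**Figure D5:**
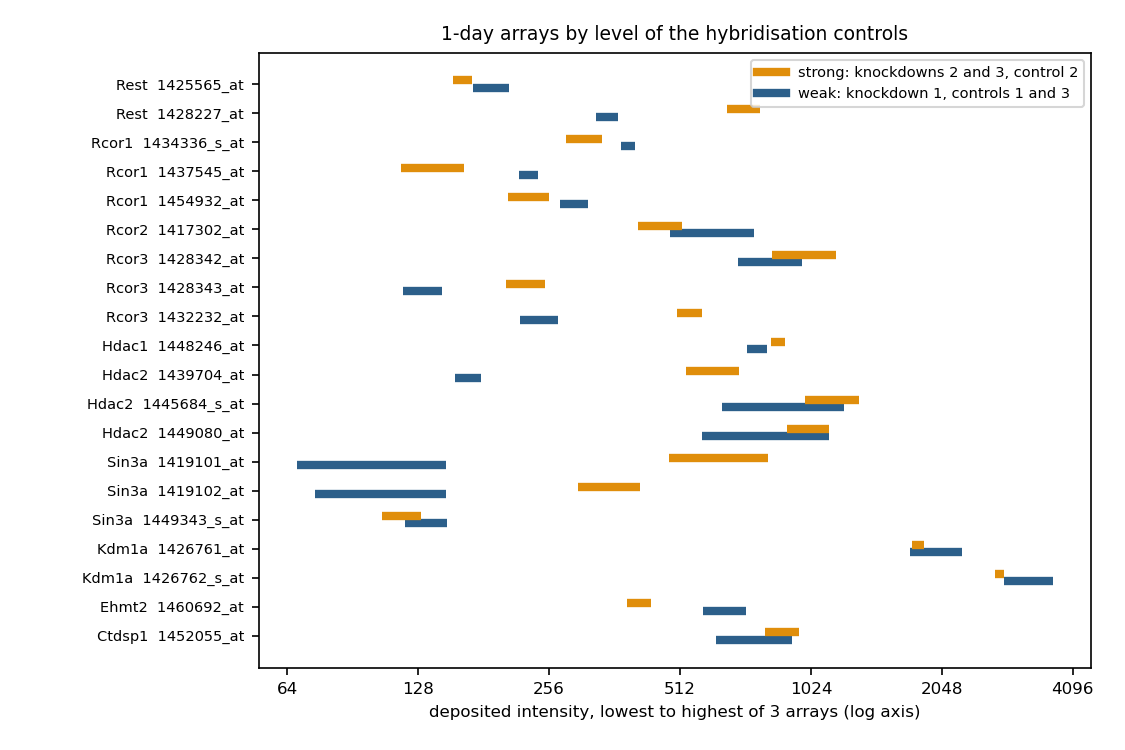
Range of deposited intensity (horizontal log axis, intensity units as deposited) of the 20 kept member probe sets over the 3 one-day arrays with strong hybridisation controls and the 3 with weak ones. Sin3a 1419101_at spans 484 to 816 in the strong set and 67.2 to 148 in the weak set, and the bars of Hdac1 and Kdm1a lie close together.

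The level of Rest did not order the groups, and that of Rcor2 did in part. Rest 1428227_at averaged 10.33 ± 0.22 in 5-day knockdowns, 9.95 ± 0.40 in 5-day controls, 10.04 ± 0.53 in 1-day knockdowns and 9.80 ± 0.41 in 1-day controls (normalized log2, SD, n = 3 each), and in order of level (5-day knockdowns, 1-day knockdowns, 5-day controls, 1-day controls) neighbours did not differ beyond their spread. Rcor2 ran from 8.26 ± 0.22 in 5-day knockdowns over 9.004 ± 0.44 in 5-day controls and 9.72 ± 0.56 in 1-day knockdowns to 10.17 ± 0.39 in 1-day controls, and the arrays of both 1-day groups overlapped. The genes whose centred values over the 12 arrays lay nearest to Rest were Zfp36l1, Dynlt3, Abhd6, Mansc1 and Cd302, with root-mean-square differences of 0.14 to 0.19 log2 units where Rest itself had a spread of 0.38. Those nearest to Rcor2 were Rnd2, Gadd45g, Snhg3, Cdk4 and Gpc1, at 0.21 to 0.26 with a spread of 0.80. The measure shares arrays and normalization between the genes and carries no test.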

How the data were processed

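Per the labels' protocols, total RNA was biotin labelled for Affymetrix 3' arrays, and the instrument files name the Mouse430_2 chip. The authors deposited 1 linear intensity per probe set and array, with the summarisation, background step and scaling not given in the sources used here. No column was left out (0). The 12 columns were quantile normalized, 16 was added and log2 was taken, so fold changes are on the log2(intensity + 16) scale and come out too small for dim probe sets. Control probe sets (64) were dropped and the upper 60% by mean kept, 27022 of 45037. Group means of all 12 arrays were fitted genome-wide with limma 3.58.1 in R 4.3.3 (8 residual degrees of freedom), with Benjamini-Hochberg adjustment over the kept probe sets and a threshold of 0.05. The fit was run on simulated data with changes put into the 5-day knockdowns. It called 4% of 100 changes of 1 log2 unit and 38% of 100 changes of 2 log2 units, with 4 false calls. Single values were also compared by two-sided exact permutation. The number of arrays limits the precision.

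Probe sets with several gene symbols were not used. The brightest kept probe set stands for a gene. All members are named; of other lists at most 4 genes with the smallest unadjusted p, plus those past the threshold, were open to naming. The members, lists and alternatives were chosen with earlier results of these data known. Replicate numbers were not used as pairs in the main fit. Deviations of same-numbered arrays correlated at 0.92, 0.90 and -0.42 at 1 day and -0.13, -0.02 and 0.10 at 5 days. At 1 day the arrays numbered 1 and those numbered 2 shared a hybridisation set, and those numbered 3 did not. Pairing and hybridisation set therefore cannot be told apart there. Alternatives were no normalization, median scaling, pseudocounts of 4 and 64, no filter, each time fitted alone, blocks for replicate, scanner and hybridisation set, probe sets averaged per gene, and leaving out each array. Fits of 5 days against 1 hybridisation set were added after seeing the data. Promoter sequences are RefSeq's (GRCm38.p6), matched by symbol for 8 of the 10 members; other coordinates were not used. Figures were drawn with matplotlib 3.10.9.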

Additional observations from a re-analysis of the deposited data

How the results depend on the processing

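Knockdown counts were 0 in limma under every alternative run. The replicate block could not move a member's value, since every group held the same replicate numbers, and it changed only the error. At 5 days Rest had 0.38 with SE 0.22 in place of 0.33, and Rcor2 -0.74 with SE 0.25 in place of 0.34. For 5 days minus 1 day the probe sets called in the main fit numbered 1616 in knockdowns and 886 in controls, of 27022 tested. They were 13508 and 13122 without normalization, 10321 and 9256 with median scaling, 3029 and 1700 without the filter, 44 and 278 with the scanner block, 12772 and 7229 against the strong 1-day set alone and 423 and 2114 against the weak set alone. Leaving out each array gave 341 to 7729 and 248 to 615. Member values that changed sign follow, on the log2 scale; beyond fewer arrays or another scaling the cause was not tested. Without normalization, Rcor3 had 0.093, Hdac1 0.025 and Kdm1a 0.012 for knockdown minus control at 1 day. There, Hdac1 had 0.54, Sin3a 0.56, Kdm1a 0.41, Ehmt2 1.21 and Ctdsp1 0.71 for 5 days minus 1 day in knockdowns. There, Rcor1 had 1.29, Rcor2 0.26, Hdac1 0.46, Kdm1a 0.70, Ehmt2 1.34 and Ctdsp1 0.63 for 5 days minus 1 day in controls. With median scaling, Rcor3 had -0.10 and Ctdsp1 -0.054 for knockdown minus control at 5 days. There, Hdac1 had 0.39, Sin3a 0.43, Kdm1a 0.26, Ehmt2 1.06 and Ctdsp1 0.57 for 5 days minus 1 day in knockdowns. There, Rcor1 had 1.14, Rcor2 0.10, Hdac1 0.30, Kdm1a 0.54, Ehmt2 1.19 and Ctdsp1 0.48 for 5 days minus 1 day in controls. The scanner block sets the 5-day knockdowns against control 1 alone. With the scanner block, Rest had -0.059, Hdac2 0.20, Sin3a -0.22 and Ctdsp1 -0.061 for knockdown minus control at 5 days. There, Rest had -0.37 and Ehmt2 0.34 for 5 days minus 1 day in knockdowns. There, Rest had -0.073 for 5 days minus 1 day in controls. With the hybridisation set as a block, Rest had -0.026 and Kdm1a 0.066 for knockdown minus control at 1 day. With the 1-day arrays of strong hybridisation controls alone, Hdac1 had 0.089, Hdac2 -0.087 and Ctdsp1 0.047 for knockdown minus control at 1 day. With those of weak controls alone, Rest had -0.12, Rcor2 0.018, Rcor3 0.073, Sin3a -0.50 and Kdm1a 0.15 for knockdown minus control at 1 day. Against the strong set alone, Rest had -0.0062 and Ehmt2 0.22 for 5 days minus 1 day in knockdowns. There, Rest had -0.32, Rcor1 0.38, Rcor3 -0.040, Sin3a -1.20 and Ehmt2 0.48 for 5 days minus 1 day in controls. Against the weak set alone, Rcor1 had -0.11 and Sin3a 1.95 for 5 days minus 1 day in knockdowns. With probe sets averaged, Rcor1 had -0.13 for knockdown minus control at 5 days. There, Rcor3 had 0.27 for knockdown minus control at 1 day. There, Rcor3 had -0.050, Hdac2 -0.31 and Sin3a 0.084 for 5 days minus 1 day in knockdowns. There, Rest had -0.083 for 5 days minus 1 day in controls. Leaving out each array in turn changed the sign of some members within these ranges. For knockdown minus control at 5 days the values ran over Ctdsp1 -0.15 to 0.31, Hdac1 -0.053 to 0.20, Hdac2 -0.19 to 0.12, Rcor3 -0.030 to 0.090 and Sin3a -0.070 to 0.45. For knockdown minus control at 1 day the values ran over Ctdsp1 -0.26 to 0.077, Hdac1 -0.13 to 0.018, Kdm1a -0.19 to 0.028 and Rcor3 -0.094 to 0.11. For 5 days minus 1 day in knockdowns the values ran over Ehmt2 -0.35 to 0.22, Rcor3 -0.064 to 0.14, Rest -0.0062 to 0.51 and Sin3a -1.71 to 0.19. For 5 days minus 1 day in controls the values ran over Ehmt2 -0.49 to 0.030, Rcor1 -0.29 to 0.058, Rcor3 -0.062 to 0.059, Rest -0.073 to 0.38 and Sin3a -0.26 to 1.26. Of the member values recomputed, 17 of 150 changed sign for knockdown minus control at 5 days, 22 of 180 at 1 day, 26 of 150 for 5 days minus 1 day in knockdowns and 27 of 150 in controls.

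Signal limited 6 of the 26 member probe sets, which lay below the filter, and the 3 arrays a group limited every test. Chip lot and fluidics station cannot be told apart from time, and in knockdowns the scanner neither. At 1 day the station follows the group, and at 5 days it follows the scanner.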

Other observations

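The probe sets of members below the filter were read in a fit without it. Rcor3 1443922_at had deposited intensities of 108, 115.2 and 88.6 in 5-day knockdowns against 65.9, 21.1 and 27.2 in 1-day knockdowns, and 102.5, 115.4 and 80.6 in 5-day controls against 81.9, 35.8 and 44.3 in 1-day controls. Its groups did not overlap in knockdowns after normalization, at 1.29 on the log2 scale (SE 0.49, limma adjusted p = 0.142), and overlapped in controls, at 0.83 (SE 0.49, adjusted p = 0.457). Ehmt2 1426888_at had 142 in 5-day knockdown 2, the array with the high Actb ratio, and 14.2 to 50.2 on the other 11 arrays. Rcor3 1425352_at and 1444364_at stayed between 18.7 and 83.3 on all arrays, with overlapping groups in every comparison.

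Progenitor genes outside the REST complexes also stood apart between the times, in both directions. Of 10 radial glia markers 4 were above 0 and 6 below in each group, beside 60.5% and 54.0% of all genes above 0. Their medians were -0.23 in knockdowns and -0.09 in controls, and their lowest values -1.42 and -1.49. The radial glia marker Slc1a3, a glutamate transporter gene, was called higher in knockdowns at 1.19 (SE 0.29, limma adjusted p = 0.041) and had 1.12 in controls (adjusted p = 0.067), and Fabp7, a fatty acid binding protein gene, had 0.83 and 0.88 without a call. Neurog2, a proneural transcription factor gene, was lower at 5 days than at 1 day, with log2 fold changes of -2.53 in knockdowns and -2.04 in controls (SE 0.23 each, limma adjusted p = 2.3e-04 and 9.9e-04). Neurod4, another of that class, had -1.67 in knockdowns and -1.16 in controls (SE 0.26 each, limma adjusted p = 0.0075 and 0.041). Eomes, a marker of intermediate progenitors, was also below control at 5 days without overlap, at -0.84 (SE 0.26, unadjusted p = 0.009, limma adjusted p = 1.00). Among mitosis genes Mki67 had -1.09 in knockdowns and -1.05 in controls (SE 0.22 each, limma adjusted p = 0.022 and 0.032), and Bub1 had -1.39 and -1.496 (SE 0.24 each, limma adjusted p = 0.013 and 0.0099). With arrays scaled to 1 median the signs of Neurod4 in controls (0.10) and of Mki67 (0.19 in knockdowns and 0.30 in controls) turned, and relative to the median of the tested probe sets they were -0.62, -0.54 and -0.43. With a scanner block the knockdown calls of Neurog2 (limma adjusted p = 0.148), Neurod4, Mki67 and Bub1 (0.723 each) were lost, and so were the control calls of Neurod4 (0.167), Mki67 (0.119) and Bub1 (0.059). Against the weak 1-day set alone Mki67 (0.154) and Bub1 (0.078) lost theirs in knockdowns, and against the strong set alone Neurod4 (0.051) lost its call in controls.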
